A study of Mus musculus with 7 samples.

Results

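Among 24430 single cells of mouse bone marrow, 1523 cells (6.23%) carried at least 3 transcript molecules (UMIs) of Flt3 and none of Dntt, Il7r, Rag1 or Pf4. They also stayed within limits on granule genes (Elane at most 1 UMI, Prtn3 and Ctsg together at most 2) and on monocyte genes (Csf1r, Ly86, F13a1 and Ccr2 together at most 2). These 1523 cells are called Flt3-high Dntt-negative cells here. The cells were chosen by the measured UMI counts of these 12 genes, so their levels are given only as a description. Barcodes were kept from 1000 UMIs and 500 genes upward if mitochondrial transcripts made up no more than 10% of their UMIs, which left 24430 of 36465.

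Flt3 is a receptor tyrosine kinase for the cytokine Flt3 ligand, and within the blood-forming compartment it appears as stem cells give way to multipotent progenitors that lean to lymphoid and myeloid fates. Dntt, the template-independent DNA polymerase of antigen receptor joining, is among the early genes of lymphoid priming. Flt3-high cells without Dntt thus hold transcripts of the receptor and no detected transcript of that lymphoid gene. A UMI count of 0 in a single cell does not show that the gene is silent in it.

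The 7 libraries came from LSK cells (lineage-negative, Sca-1-positive, cKit-positive) sorted from the marrow of tibia and femur. Their labels read B4galt1 KO for 3 libraries (genotype 129S1/C57Bl/6, B4-/-, called a full knockout) and WT for 4 (129S1/C57Bl/6). B4galt1 encodes a galactosyltransferase that builds the sugar chains of glycoproteins, and the series title links glycosylation to the megakaryocytic fate of stem cells through Wnt and Muc13. Age, sex, the deleted stretch of B4galt1 and whether a library is 1 animal or a pool are not given in the sources used here, so p-values measure the spread between these libraries, which may be technical.

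The libraries differed in more than their label. Barcodes of KO replicate 3 and WT replicate 4 opened with another set of 5-base sequences (barcode list B) than those of the other 5 libraries (list A), although the labels name 1 kit. Kept cells numbered 1172 to 3072 in list A libraries and 6855 and 8862 in list B, and ribosomal protein genes took 12.2% to 19.1% of the UMIs of the Flt3-high Dntt-negative cells in list A against 31.5% and 32.2% in list B. KO replicate 3 and WT replicate 4 shared 68 kept barcodes, any other pair at most 2, and no barcode of a Flt3-high Dntt-negative cell was shared. Xist was at 2806 to 3362 CPM in these cells of KO replicates 1 and 2 and WT replicates 1 and 2 and at most 0.814 CPM in the others, which held the Y-linked transcripts. Both libraries of list B were among the Y-positive ones.

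The markers of the sort and of the label were present in these cells. Kit, the stem cell factor receptor behind the cKit gate, was at a lowest, median and highest 181, 327 and 371 CPM over the 7 libraries, and Ly6a, which encodes Sca-1, at 19.3, 48.8 and 82.5 CPM. Cd34 and Cd48, surface proteins of multipotent progenitors, were detected in every library (237 to 548 and 57.2 to 198 CPM). Slamf1, the stem cell surface protein CD150, was at 0, 2.13 and 6.87 CPM. Markers of committed types ranged widely. The summed level of 22 granulocyte-monocyte genes outside the rule was 1247 to 2863 CPM, led by Plac8 (median 638) and Calr (378), and that of 22 megakaryocyte-erythroid genes 803 to 1906 CPM, led by Car2 (median 461). The 14 dendritic cell genes summed to 319 to 889 CPM, led by Cst3 (median 249). Among lineage factors picked after their values were seen, the B cell factors Ebf1 and Pax5 reached 2.91 and 1.21 CPM at most, and the erythroid factors Klf1 and Gata1 1.94 and 7.24 CPM. The summed level of 10 B cell markers ranged from 18.1 to 46.4 CPM and that of 12 T, NK and innate lymphoid markers from 34.3 to 224 CPM. Siglech (plasmacytoid dendritic), Ncr1 (NK), Ms4a1 (B) and Cdh5 (endothelium) were at 0 in every library. Each was the only member of its list at 0 in every library, so other markers of these types were detected. The 10 stromal and endothelial genes summed to 148 to 269 CPM.

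Flt3 was low in most of the cells that the rule took. It stood at a median of 4 UMIs per cell in 5 libraries and 5 in WT replicates 2 and 3. Of the 1523 cells, 519 held exactly 3 Flt3 UMIs, 348 held 4, 591 held 5 to 9 and 65 held 10 or more. A further 893 cells met every other limit with 2 Flt3 UMIs and so lay just outside. The highest count was 9 in each of the 3 knockout-labelled libraries and 16, 18, 20 and 17 in WT replicates 1 to 4. Cells with 10 or more Flt3 UMIs numbered 0 in all knockout-labelled libraries and 4, 14, 28 and 19 in the wild-type-labelled ones. The latter were 3.31%, 8.48%, 10.8% and 2.69% of their Flt3-high Dntt-negative cells. Median depth of these cells was 6320, 5816 and 7714 UMIs in KO replicates 1 to 3. In WT replicates 1 to 4 it was 8068, 8587, 9501 and 7208 UMIs. As CPM, Flt3 was at 553, 666 and 536 under the KO label and 516, 553, 525 and 639 under the WT label, which overlap.

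Across those steps of Flt3, other genes moved in both directions. Satb1, a chromatin organizer of lymphoid priming, averaged 132 CPM (scaled by depth alone) in the cells with 2 Flt3 UMIs, 152 with 3, 197 with 4 and 227 with 5 to 9. Emb, a cell adhesion gene, went from 188 to 227, 272 and 314 over the same steps, while the megakaryocyte and stem cell factor Gata2 went from 90.2 to 64.2, 64.0 and 46.8 and Muc13 from 160 to 151, 132 and 116. Hlf, a stem cell transcription factor, stayed between 486 and 516. These are means over libraries with at least 20 cells in a step, with no test. Median depth rose along the same steps, from 6836 to 7167, 7374 and 8072 UMIs per cell.

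The Flt3-high Dntt-negative cells took a smaller share of the kept cells in every knockout-labelled library than in any wild-type-labelled one. The share was 2.51%, 3.30% and 2.00% in KO replicates 1 to 3, from 77, 57 and 137 cells, and 9.73%, 14.1%, 17.3% and 7.97% in WT replicates 1 to 4, from 121, 165, 260 and 706 cells. The groups did not overlap: the highest upper bound of an exact 95% binomial interval was 4.26% under the KO label and the lowest lower bound 7.41% under the WT label, which covers counting error only. The means were 2.60% ± 0.66 (SD, n = 3) and 12.3% ± 4.24 (SD, n = 4), and their difference fell short of the threshold, because a two-sided exact permutation test of 3 against 4 libraries cannot go below p = 0.0571, the value it gave. KO minus WT, the difference was -9.67 percentage points in all libraries, -10.8 within list A and -5.97 between the 2 libraries of list B. Among cells of at least 5000 UMIs, each thinned to 5000, the shares were 2.95% ± 0.15 and 11.1% ± 4.13.

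The difference in share depended on the limits on granule and monocyte genes. Without them, an alternative chosen after the data had been seen, Flt3-high cells with no Dntt, Il7r, Rag1 or Pf4 UMI took 18.5%, 17.2% and 14.8% of the cells in KO replicates 1 to 3 and 17.2%, 21.8%, 25.8% and 16.4% in WT replicates 1 to 4. The groups then overlapped (16.8% ± 1.85 against 20.3% ± 4.36, exact permutation p = 0.286). Cells with at least 3 Flt3 UMIs, whatever else they held, made up 29.9%, 31.1% and 39.5% of the knockout-labelled cells and 41.5%, 48.2%, 55.1% and 47.4% of the wild-type-labelled ones, without overlap (exact permutation p = 0.0571). Among cells of at least 5000 UMIs, each thinned to 5000, those shares averaged 15.4% ± 4.13 and 29.7% ± 4.68.

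**Figure D1:**
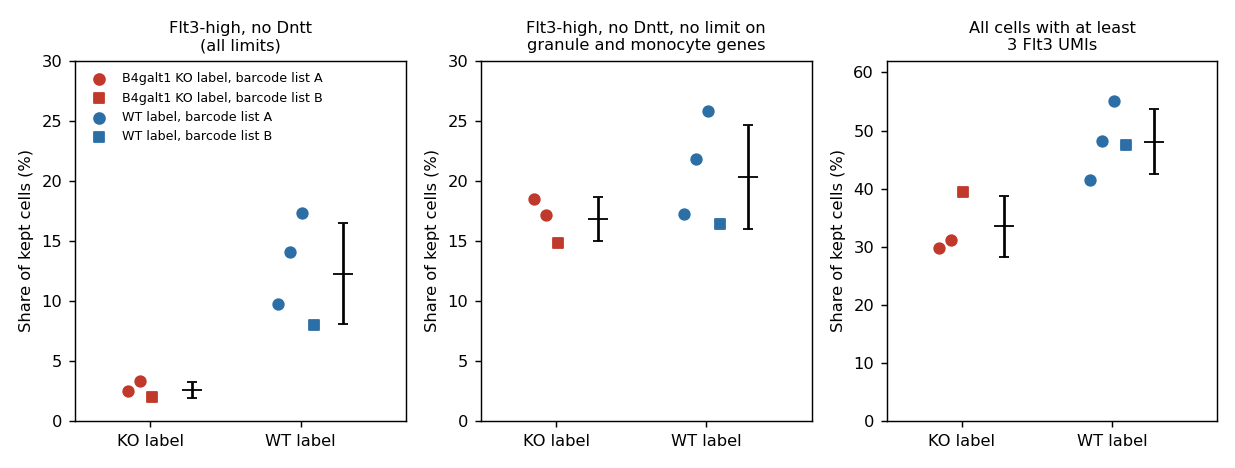
Share of kept cells (percent, y axis) by label in the 7 libraries, with the mean and SD beside the points: all limits (left), without the limits on granule and monocyte genes (middle), and all cells with at least 3 Flt3 UMIs (right). The labels stand apart on the left (2.00% to 3.30% against 7.97% to 17.3%) and overlap in the middle.

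Most Flt3-high cells of the knockout-labelled libraries were over a limit on granule genes, many of them over other limits too. Prtn3 and Ctsg, serine proteases of the primary granules of myeloid cells, passed their joint limit in 81.6%, 75.2% and 80.6% of the cells with at least 3 Flt3 UMIs in KO replicates 1 to 3, and in 35.9%, 32.4%, 31.0% and 46.9% in WT replicates 1 to 4. The monocyte limit was passed in 48.0%, 57.4% and 28.5% against 10.1%, 6.90%, 3.99% and 8.59%, and the limit on Elane, neutrophil elastase, in 23.8%, 13.4% and 6.21% against 1.16%, 0.531%, 0.363% and 1.64%. None of these 3 limits overlapped between the labels. Dntt was over its limit in 34.9%, 43.2% and 53.6% of the Flt3-high cells under the KO label and 56.4%, 52.9%, 49.8% and 57.0% under the WT label, which overlap. A cell over several limits counts under each. Prtn3 with Ctsg was the only limit passed in 20.2%, 11.4% and 23.6% against 13.6%, 12.7%, 13.5% and 15.9%, which overlap. Dntt was the only limit passed in 4.91%, 8.01% and 7.20% against 26.2%, 29.6%, 26.5% and 23.5%, without overlap.

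The same granule transcripts also appeared in stem-type cells. Among kept cells with a UMI of Hlf and of Mecom, both stem cell transcription factor genes, and no Flt3, the joint limit on Prtn3 and Ctsg was passed in 43.4%, 33.8% and 47.6% of the cells in the knockout-labelled libraries and in 14.7%, 9.24%, 11.6% and 27.4% in the wild-type-labelled ones. Median depth there was 6898, 5341 and 8002 UMIs against 6653, 5684, 7404 and 6333. In the Flt3-high cells it was 13683, 11667 and 12026 against 11827, 12082, 12006 and 10024 UMIs. The part that RNA from other cells takes in the share was not tested.

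Whether a Flt3-high cell within the other limits lacked Dntt did not separate the labels. The share with no Dntt UMI was 63.1%, 57.0% and 41.3% in KO replicates 1 to 3 and 47.3%, 49.7%, 54.3% and 41.7% in WT replicates 1 to 4. The ranges overlapped, and the means, 53.8% ± 11.3 (SD, n = 3) and 48.2% ± 5.24 (SD, n = 4), did not differ beyond the spread (exact permutation p = 0.40). The 2 libraries of list B had the lowest shares and differed by -0.436 percentage points (KO minus WT). Within list A the difference was 9.64, without overlap, at the smallest p that 2 against 3 libraries allow (0.20).

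The next comparison asked what else marks cells without Dntt. The counterparts were the 1791 cells that met every other limit and held at least 1 Dntt UMI. Counts were summed per library and compared with edgeR's quasi-likelihood test, with the library as a block. The Flt3-high Dntt-negative cells had higher levels of stem cell and megakaryocyte-erythroid genes and lower levels of lymphoid genes. Of 9997 genes outside the rule, 1597 (16.0%) passed an adjusted p of 0.05, 752 (7.52%) higher and 845 (8.45%) lower. Of 15 tested granulocyte-monocyte genes outside the rule, 6 were lower and 1 higher (median log2 difference 0.01). That list summed to less in the Flt3-high Dntt-negative cells of every library (1247 to 2863 against 1717 to 4021 CPM). The counterparts were the deeper cells in every library, with medians of 6726 to 10714 UMIs against 5816 to 9501. They also held more Flt3 in every library, at 668 to 907 CPM against 516 to 666 CPM. How far the differences go with the level of Flt3 and not with Dntt was not tested.

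Most stem cell genes that could be tested were higher. Of 22 members, 18 were tested, 16 were higher and none lower, with a median log2 difference of 0.99 against -0.01 over all genes tested. Hlf stood at 308, 509 and 646 CPM (lowest, median and highest library) in the Flt3-high Dntt-negative cells and at 155, 217 and 316 CPM in the Dntt-positive ones. It was higher in 7 of 7 libraries, by 1.07 on the log2 scale (SE 0.05, adjusted p = 1.9e-21). Mecom, a zinc finger factor of stem cells, was at 376, 904 and 1407 CPM against 191, 486 and 731 CPM (0.97, SE 0.04). Procr, the protein C receptor and a stem cell surface protein, was at 8.58, 27.1 and 54.6 CPM against 0, 11.1 and 20.2 CPM (1.34, SE 0.13). Tie1 and Esam, endothelial and stem cell surface genes, rose by 1.55 (SE 0.17) and 1.62 (SE 0.21). Gimap6 (0.04) and Ctnnal1 (0.18) did not pass. With list A alone the count was again 16 of 18.

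Megakaryocyte-erythroid genes went the same way. Of 22 members, 12 were tested, 10 were higher and none lower (median 0.76). Gata2 was at 34.5, 50.6 and 89.0 CPM against 18.2, 20.1 and 41.7 CPM, higher in 7 of 7 libraries by 1.00 (SE 0.10). Tal1, a partner of the Gata factors, rose by 0.76 and Car2, carbonic anhydrase 2, by 0.58. Gata2 stands on this list and on the stem cell list. Muc13, a transmembrane mucin named in the series title, was at 97.1, 114 and 233 CPM against 42.8, 56.9 and 113 CPM, 1.08 higher (SE 0.08, 7 of 7 libraries, adjusted p = 1.6e-14).

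Lymphoid genes were lower. Of 22 early lymphoid members, 9 were tested, 7 were lower and 2 higher (median -1.73). Arpp21, a lymphoid-primed RNA-binding protein gene, was at 0, 15.9 and 21.6 CPM against 63.5, 91.1 and 144 CPM (-2.70, SE 0.11). Ighm, the immunoglobulin mu constant region that is transcribed early without rearrangement, was at 15.5, 57.0 and 181 CPM against 171, 243 and 491 CPM (-1.97, SE 0.17). The adaptor gene Blnk was 1.84 lower and the kinase gene Lck 1.02 lower. The 2 higher members were Gata3, a T cell and innate lymphoid factor (0.94), and Adgrl4, an adhesion receptor gene (0.26). Ebf1, Pax5, Rag2 and Cd79a were too low to test.

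Genes of Flt3-primed progenitors were also lower than in the Dntt-positive cells. All 20 members were tested, 16 were lower and 1, Lmo2, was higher (median -0.39). Satb1 was at 107, 215 and 253 CPM against 236, 434 and 562 CPM, lower in 7 of 7 libraries by 1.14 on the log2 scale (SE 0.06). Notch1, the receptor of T lineage commitment, was 1.07 lower (SE 0.12), Emb 0.66 (SE 0.06) and Cd34 0.21 (SE 0.05). Lmo2, a bridging factor of stem cells, rose by 0.39 (SE 0.05), and Runx2 and Tcf3 were among those that did not pass.

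By size, the genes highest over the Dntt-positive cells were Rab27b, a vesicle traffic GTPase (2.86, SE 0.27), Pcdh7, a protocadherin (2.15, SE 0.27), B3galt1, a galactosyltransferase (2.07, SE 0.22), Palld, Shank3, 4930519L02Rik, the globin gene Hbb-bt, Grb10, Gm973 and Dach1, at 1.72 to 1.86. Dach1, a transcriptional cofactor, was the most abundant of them at 156, 277 and 599 CPM against 41.7, 91.2 and 197 CPM. The lowest were Cmah, the sialic acid hydroxylase, at 8.25, 13.5 and 15.7 CPM against 48.5, 111 and 169 CPM (-3.20, SE 0.11), then Arpp21, Ighv1-77, the lectin receptor Clec12a (-2.18, SE 0.14), Ighm, Fgf13, Gm26740, the dendritic and monocyte factor Irf8 (-1.60, SE 0.18), Il12a and Ncf1.

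The third kind of cell held no Flt3. The 2951 Flt3-zero counterparts met every other limit of the rule, Dntt included. Flt3-primed genes were higher and stem cell and megakaryocyte-erythroid genes lower in the Flt3-high Dntt-negative cells. Of 10096 genes tested, 1210 (12%) passed, 606 (6.00%) higher and 604 (5.98%) lower. Both comparisons use the same Flt3-high Dntt-negative sums, so they are not independent. The Flt3-zero cells were shallower in every library, with medians of 3900 to 7033 UMIs, and within a window of 5000 to 15000 UMIs 1027 genes passed, 871 of them among the 1210.

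Of the 20 Flt3-primed genes, 19 were tested, 15 were higher and none lower (median 0.50 against -0.02 over all genes). Satb1 was at 107, 215 and 253 CPM against 14.6, 57.6 and 74.1 CPM (1.99, SE 0.10). Emb was at 239, 277 and 369 CPM against 88.1, 110 and 140 CPM (1.32, SE 0.07), without overlap between the 2 kinds of cell. Notch1 rose by 1.15 (SE 0.12), the orphan receptor gene Gpr171 by 0.96 (SE 0.10), Cd34 by 0.84 (SE 0.08), Cd48 by 0.67 (SE 0.08), and the lymphoid factor genes Mef2c and Ikzf1 by 0.63 (SE 0.06) and 0.51 (SE 0.06). Cd52, Tcf3, Bcl11a and Lmo2 did not pass.

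Stem cell genes were lower in most cases, and Hlf was the exception. Of 20 tested members, 14 were lower and 1 higher (median -0.69). Slamf1 was at 0, 2.13 and 6.87 CPM against 9.51, 16.6 and 34.2 CPM, lower in 7 of 7 libraries (-2.84, SE 0.25). Trpc6, a calcium channel gene, was 1.29 lower (SE 0.08), Mllt3, a stem cell maintenance factor, 0.93 (SE 0.11) and Mecom 0.33 (SE 0.06). Hlf was 0.24 higher (SE 0.06, adjusted p = 0.0078), in 6 of 7 libraries, at 308, 509 and 646 CPM against 220, 430 and 693 CPM, ranges that overlap. With list A alone no stem cell gene was higher and 11 of 19 were lower, and without KO replicate 3 none was higher and 13 of 20 were lower.

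Of 12 tested megakaryocyte-erythroid genes, 10 were lower and none higher (median -0.79). Apoe, apolipoprotein E, was at 18.1, 39.8 and 65.3 CPM against 90.3, 159 and 268 CPM (-2.23, SE 0.12), without overlap. Gata2 was 1.24 lower (SE 0.08), the platelet integrin gene Itga2b 1.44 (SE 0.14), the tetraspanin gene Cd9 1.00 (SE 0.10) and Muc13 0.45 (SE 0.07, 7 of 7 libraries). Muc13 was thus ordered from Flt3-zero to Flt3-high Dntt-negative to Dntt-positive cells in each library, as were Satb1 and Emb in the opposite order.

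**Figure D2:**
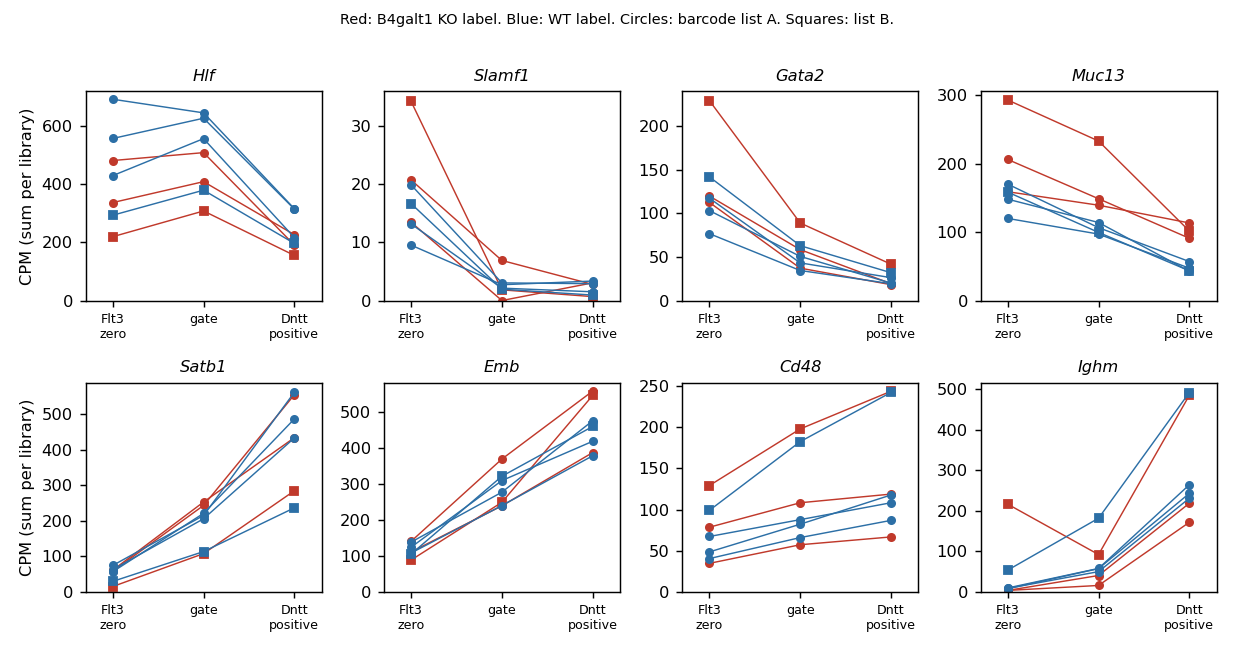
CPM per library (y axis) of 8 genes in Flt3-zero, Flt3-high Dntt-negative (gate) and Dntt-positive cells, with 1 line per library. Satb1 and Emb rise and Muc13 falls from left to right in every library, while Slamf1 drops between the first 2 kinds of cell and Hlf between the last 2.

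By size, the genes highest over the Flt3-zero cells were Gm32554 (3.12, SE 0.30), the whey acidic protein genes Wfdc17 (2.95, SE 0.32) and Wfdc18 (2.74, SE 0.24), the semaphorin gene Sema3d, the chemokine gene Ccl3 (2.43, SE 0.09), Clec2i, the ephrin receptor gene Ephb2, the neuregulin gene Nrg2, Satb1 and Pkib. Wfdc17 was at 52.6, 203 and 268 CPM against 8.15, 20.7 and 59.2 CPM. The lowest were Meg3, Apoe, Grb10, a growth factor adaptor, at 5.50, 13.9 and 31.5 CPM against 40.3, 65.7 and 97.2 CPM (-2.14, SE 0.13), the receptor gene Tgfbr3 (-2.08, SE 0.11), Lhcgr, Magi2, Plxdc2, Thsd4, Nbea and Plcl1. The Flt3-zero sums also held neutrophil RNA: S100a9, a calprotectin subunit, was at 2032 to 12429 CPM in the list A libraries and at most 4.65 CPM in list B, against 2.91 to 36.1 CPM in the Flt3-high Dntt-negative cells of all libraries. Its part in this comparison was not tested.

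**Figure D3:**
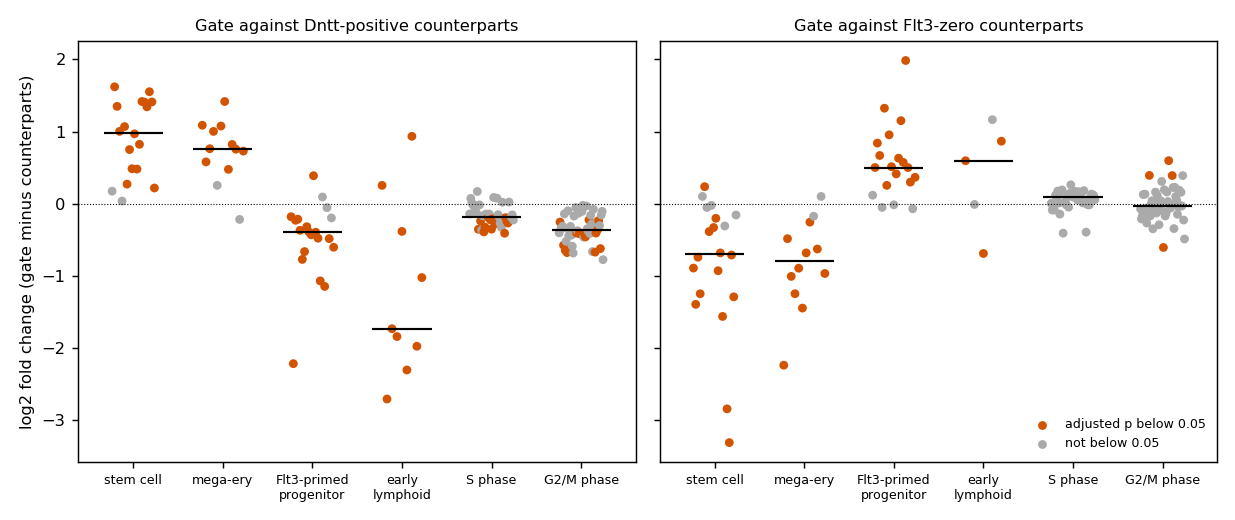
Log2 differences (y axis) of the tested members of 6 gene lists, for the Flt3-high Dntt-negative cells (gate) against Dntt-positive cells (left) and Flt3-zero cells (right). Bars are medians, such as 0.99 and -0.69 for stem cell genes, and "mega-ery" stands for megakaryocyte-erythroid.

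Most components of Flt3 signalling and regulators of its gene did not pass in either comparison. Against the Dntt-positive cells, 6 of 21 tested were higher and 1 lower (median 0.09), beside 7.52% and 8.45% of all genes. Against the Flt3-zero cells 3 of 23 were higher and 5 lower (median -0.05), beside 6.00% and 5.98% of all genes. The medians over all genes were -0.01 and -0.02. Hoxa9, a homeobox factor of progenitors, was 0.52 higher (SE 0.07) than in Flt3-zero cells and 0.26 lower (SE 0.06) than in Dntt-positive ones. Socs2, a feedback inhibitor of cytokine receptors, was 1.58 lower than in Flt3-zero cells (SE 0.16), and the signal transducer gene Stat5a 0.53 lower (SE 0.10).

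Some cell cycle genes were lower than in the Dntt-positive cells, which were also the deeper ones. Of 41 S phase genes 15 were lower and none higher (median -0.18), and of 51 tested G2/M genes 15 were lower and none higher (median -0.36). Among cells of 5000 to 15000 UMIs 5 of 41 S phase and 9 of 48 G2/M genes were lower, and by DESeq2 5 of 41 and 11 of 51. Thinned to 5000 UMIs per cell, the summed S phase genes were lower than in the Dntt-positive cells in 6 of 7 libraries, KO replicate 2 being the other (22.1 against 20.2 UMIs per cell), and the summed G2/M genes in 6 of 7, KO replicate 3 being the other (18.8 against 14.5). The counts moved with single libraries. Without KO replicate 3 the G2/M count was 37, without WT replicate 4 it was 8 and without WT replicate 3 it was 10. The S phase count was 5, 8 and 9 without WT replicates 4, 3 and 2. Against the Flt3-zero cells no S phase gene passed, and 3 G2/M genes were higher and 1 lower. Whether the 2 comparisons differ in these lists was not tested. Immediate early genes were higher than in Flt3-zero cells for 8 of 23 tested, among them Nr4a1 (0.58, SE 0.09) and Dusp2 (0.52). That count was 5 without WT replicate 3.

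The label comparison within the Flt3-high Dntt-negative cells rested on 271 cells under the KO label and 1252 under the WT label, with the barcode list as a covariate. Very few genes passed. Of 10040 genes, 4 (0.0398%) passed an adjusted p of 0.05, 2 higher (0.0199%) and 2 lower (0.0199%), and 422 had an unadjusted p below 0.05. Of the 2 higher genes Ctsg is limited by the rule, so its call is no result, and 3 genes outside the rule remain. Leaving out 1 library changed the count: 1 without KO replicate 1, 23 without KO replicate 2, 18 without KO replicate 3, 0 without WT replicate 1 (366 at an unadjusted p below 0.05), 1 without WT replicate 2 and 16 without WT replicate 4. The groups did not overlap for 227 genes (2.26%), 115 higher (1.15%) and 112 lower (1.12%).

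Socs3, a feedback inhibitor of Stat3 signalling (chromosome 11, 117966079 to 117970047, GRCm38), was higher under the KO label. It stood at 51.2, 53.6 and 28.7 CPM in KO replicates 1 to 3 and at 16.6, 14.8, 14.7 and 11.8 CPM in WT replicates 1 to 4. All knockout-labelled libraries lay above all wild-type-labelled ones. The log2 difference was 1.60 (SE 0.25, edgeR adjusted p = 0.0084), and it was 1.76 in list A alone and 1.28 between the 2 libraries of list B. At a like difference the call was lost without the barcode list covariate (edgeR adjusted p = 1.00), with a replicate block in place of it (0.36), with cells thinned to 5000 UMIs (0.074), and without KO replicate 1 (0.21), WT replicate 1 (0.083) or WT replicate 2 (0.059). In all other kept cells Socs3 was 1.23 higher, and the label effect in the Flt3-high Dntt-negative cells did not pass a test of difference from that (0.36, adjusted p = 0.52).

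Ccl27a, a chemokine gene, was lower: 2 UMIs were counted in the knockout-labelled cells against 211 in the wild-type-labelled ones, a ratio of 0.051 per UMI (95% counting interval 0.0061 to 0.187). It was at 0, 0 and 1.91 CPM against 10.1, 6.19, 11.1 and 32.3 CPM, without overlap (edgeR adjusted p = 0.0084). The gene lies on chromosome 4 at 41769467 to 41774247 (GRCm38), 915 kb beyond B4galt1 at 40804602 to 40854005. Its symbol stands on 3 rows of the tables, so reads shared between copies make its count uncertain. In all other kept cells it was lower too (-4.35, edgeR adjusted p = 0.0058). Fam155a, a gene for a sodium leak channel subunit, had 0 UMIs under the KO label and 163 under the WT label, at least 10.1-fold lower against a floor of 3 counts over the group. The 95% counting interval of the Fam155a ratio was 0 to 0.123. Its wild-type-labelled levels were 21.2, 41.5, 20.1 and 3.46 CPM (edgeR adjusted p = 0.013). In all other kept cells Fam155a was lower too (-2.93, edgeR adjusted p = 0.012). The edgeR test of a difference between these label effects did not pass (adjusted p = 0.22). The Ccl27a call was lost in list A alone (edgeR adjusted p = 0.28) and with a replicate block added to the covariate (0.11). The call was also lost without KO replicate 3 (0.16) and without the covariate (1.00). That of Fam155a was lost without KO replicate 1 (0.38), with thinned cells (0.14), with at least 5 Flt3 UMIs (0.080) and without the covariate (1.00). The mean CPM of Ccl27a was under 10, so it is named only because it passed.

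Ctsg is given as a description. It stood at 45.9, 17.9 and 18.2 CPM under the KO label and 5.53, 4.95, 5.39 and 5.49 CPM under the WT label. Prtn3, limited together with it, was at 113, 152 and 148 CPM against 79.6, 54.4, 69.1 and 143 CPM, and overlapped through WT replicate 4.

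**Figure D4:**
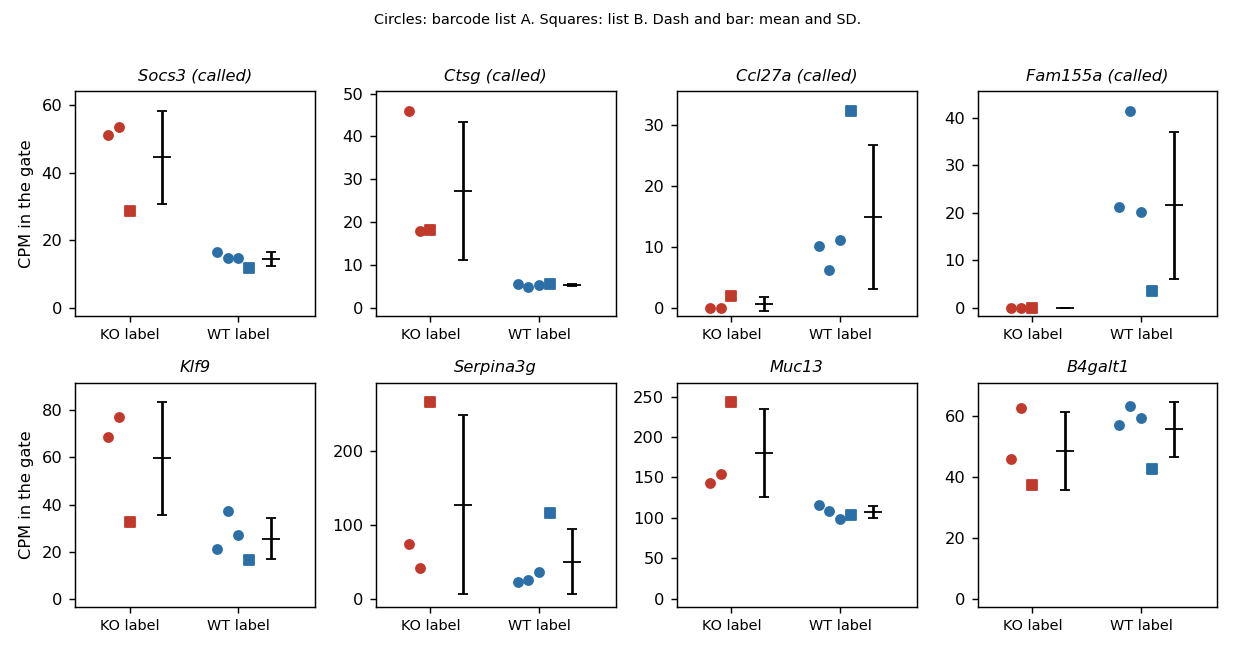
CPM (y axis) in the Flt3-high Dntt-negative cells by label for the 4 genes that passed (top row, Ctsg being a gene of the rule) and for Klf9, Serpina3g, Muc13 and B4galt1, which did not (bottom row). Each point is a library, and the dash and bar give the mean and SD. Socs3 separates the labels (28.7 to 53.6 against 11.8 to 16.6 CPM).

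The next genes by p did not pass. Klf9, a glucocorticoid-induced factor, was at 68.9, 77.4 and 32.5 CPM against 21.2, 37.1, 27.3 and 16.7 CPM (1.21, SE 0.24, adjusted p = 0.067). Serpina3g, a protease inhibitor gene, Gm15657, Smad7, the kinase gene Pim1, Gm47283, the fucosyltransferase gene Fut8 and Selp, P-selectin, had differences of 0.85 to 1.69 with adjusted p of 0.069 to 0.12. On the low side Nxph1 (-2.58, adjusted p = 0.069), Ighm, Cobll1, Itsn1, Samd12, Zpbp, Chtop, Il1rapl2 and B3gnt2 did not pass either.

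Muc13 (chromosome 16, 33794037 to 33819934) was at 143, 155 and 243 CPM under the KO label and 116, 109, 98.4 and 104 CPM under the WT label. The groups did not overlap, yet the difference did not pass (0.73, SE 0.19, edgeR adjusted p = 0.43). It was 0.46 in list A and 1.22 in list B. Gm15657 is annotated antisense to Muc13 and overlaps it by 2838 bases. It was at 136, 68.4 and 93.7 CPM against 46.1, 51.4, 42.7 and 54.1 CPM (1.05, adjusted p = 0.069). Whether the authors counted by strand is not given in the sources used here, so reads of the pair may not be told apart.

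The transcript of the targeted gene, B4galt1, was detected in every library. It was at 45.9, 62.5 and 37.3 CPM in the knockout-labelled libraries and 57.2, 63.1, 59.3 and 42.7 CPM in the wild-type-labelled ones, which overlap (-0.19, SE 0.21, adjusted p = 1.00). The deleted stretch is not given, so the counts do not check the labels. B4galt3, B4galt4, B4galt5, B4galt6 and B4galt7, which encode related galactosyltransferases, differed by -0.15 to 0.33 and none passed. B4galt2 had 1 UMI in all.

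Gene lists were then compared between the labels. In the Flt3-primed list 0 of 19 passed (median -0.09), in the stem cell list 0 of 18 (0.01), in the early lymphoid list 0 of 6 (-0.18) and in the granulocyte-monocyte list 0 of 14 (0.03), beside a median of -0.02 over all genes. Of 12 megakaryocyte-erythroid genes none passed and 9 had positive differences (median 0.45). Of 28 Wnt pathway genes none passed (0.01), and of 22 interferon genes none (0.14). Socs3 was the only 1 of 23 immediate early genes to pass, and 21 had positive differences (0.35). The summed level of the immediate early genes was 6827, 7634 and 3938 CPM under the KO label and 4599, 4415, 5480 and 5532 CPM under the WT label, so KO replicate 3 lay below all others.

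Cell cycle genes leaned lower under the KO label with no gene passing: 39 of 41 S phase genes (median -0.28) and 46 of 50 G2/M genes (median -0.40) had negative differences, against 5283 of 10040 over all genes. Thinned to 5000 UMIs per cell, S phase genes summed to 14.6, 22.1 and 11.4 UMIs per cell in KO replicates 1 to 3 and 22.3, 19.0, 16.2 and 13.5 in WT replicates 1 to 4. G2/M genes summed to 12.2, 16.4 and 18.8 against 20.4, 23.8, 17.9 and 17.4. Both overlapped. Unthinned and scaled to 5000 UMIs, the G2/M sums were 13.5, 15.6 and 23.9 against 24.0, 26.0, 22.3 and 21.2. Thinning left out 7 to 21 cells of a knockout-labelled library and 18 to 86 of a wild-type-labelled one.

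The label effect in these cells was then tested against that in all other kept cells. It differed for 653 of 14127 genes (4.62%), 163 with a higher effect (1.15%) and 490 with a lower one (3.47%). In the other kept cells alone, 146 of 14590 genes (1.00%) passed. The limits on granule and monocyte genes removed a larger share of the Flt3-high cells under the KO label, so the rule itself bears on the label effect of myeloid genes here, and their values are a description. Of 22 granulocyte-monocyte genes 6 had a lower effect and none a higher one. Prss57, a granule protease gene, averaged 84.8 CPM under the KO label and 28.6 CPM under the WT label in the other cells and 16.6 and 18.5 CPM in the Flt3-high Dntt-negative cells (-1.46, SE 0.27). The summed granulocyte-monocyte list was at 5786 to 11527 CPM under the KO label and 2543 to 4068 CPM under the WT label in the other cells, against 1338 to 2863 and 1247 to 2528 CPM in the Flt3-high Dntt-negative ones. Its part in the 653 was not tested.

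That count changed with the libraries and the barcode list term. It was 157, 435 and 1542 without KO replicates 1, 2 and 3, and 240, 386, 283 and 1470 without WT replicates 1 to 4. Without a term that lets the 2 kinds of cell differ by barcode list it was 5. S phase genes had a lower effect in 11 of 41 cases and G2/M genes in 9 of 52, with none higher, and stem cell genes a higher effect in 4 of 22. Among named genes with a higher effect, Sema3d averaged 64.6 and 59.6 CPM (KO and WT label) in the Flt3-high Dntt-negative cells and 10.3 and 29.1 CPM in the others (1.40, SE 0.23).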

How the data were processed

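For each of 7 libraries the authors deposited a matrix of UMI counts. Its header names Cell Ranger 7.0.0, with Seurat 4.4.0 and the mm10 build named in the submitters' processing notes. Gene and barcode names came from the deposited name files. The annotation used for counting is not given in the sources used here. Gene positions are from GENCODE M21 (GRCm38). Total UMIs per library ranged from 14970791 to 89747946.

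Cells were filtered and chosen as described, and raw counts were summed per library and kind of cell. No doublet caller was run, and an alternative dropped the 5% of cells with the most UMIs. Sums were tested with edgeR 4.0.16 (R 4.3.3; TMM, filterByExpr, robust quasi-likelihood fit), with Benjamini-Hochberg adjustment over all genes tested and a threshold of 0.05. The label fit had the barcode list as a covariate, the cell comparisons the library as a block. CPM values carry TMM factors, computed among the Flt3-high Dntt-negative sums for the label comparison and among all sums elsewhere. The CPM by step of Flt3 have none. Shares were compared by exact permutation tests over libraries (scipy 1.17.1, two-sided, doubling the smaller tail). The edgeR steps were tested on simulated counts. DESeq2 1.42.0 and other filters, Flt3 limits, depths and left-out libraries were alternatives. Thinning to 5000 UMIs used only cells with at least that many and left out the shallower ones.

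The members, gene lists and tests were chosen with earlier results of these data known. Named genes were the 10 largest changes each way among genes that passed with mean CPM of at least 10. Where fewer than 5 passed, they were the 10 smallest p. The comparisons with Dntt-positive and Flt3-zero cells also required 1 direction in 7 of 7 libraries. The interaction genes had no such requirement. Of each list the members with mean CPM of at least 50 or past the threshold could be named, 6 at most, and B4galt1 to B4galt7 and Muc13 always. Further list members named as examples (such as Procr, Slamf1, Emb, Notch1, Cd34, Cd48, Tie1, Esam, Trpc6, Blnk, Itga2b, Hoxa9, Socs2 and Stat5a) and the markers reported as low were chosen after their values were seen, as were Prtn3 and S100a9. Of the basophil and mast cell, dendritic and stromal lists few members are named. Their summed levels were 196 to 380, 319 to 889 and 148 to 269 CPM in the Flt3-high Dntt-negative cells. Kit, the receptor of the cKit gate, is on the basophil and mast cell list and took most of that sum. Of the 10 members of that list, 3 were at 0 in every library. A few list members counted here are not reported by name.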

Additional observations from a re-analysis of the deposited data

Results flagged for a closer look

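In 5 of 32 groups checked, 1 library stood far from the rest of its group. Chance alone gives about 1 in 20 for independent groups, but these share the same libraries and are not independent. Of these, 4 came from WT replicate 4, the only wild-type-labelled library of barcode list B. Serpina3g was at 115.7 CPM there and 23.0 to 36.3 CPM in the other wild-type-labelled libraries. Nxph1 was at 9.97 against 27.7 to 29.7 CPM, Ighm at 189.8 against 50.3 to 58.8 CPM, and Chtop at 142.0 against 60.8 to 73.0 CPM. The remaining one was B4galt2, at 0.619 CPM in WT replicate 2 and 0 in the others, which is a single UMI. KO replicate 3, the other library of list B, was likewise the highest of its label for Serpina3g, Ighm and Chtop. It was at 265.8, 95.6 and 99.4 CPM, against at most 74.1, 41.7 and 38.8 CPM in KO replicates 1 and 2. For Nxph1 it was not the lowest of its label (4.78 CPM against 1.77 and 0).

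Named genes whose label effect differed between the Flt3-high Dntt-negative cells and all other kept cells, by the interaction test of edgeR, are given next. The difference in log2 label effect was higher for Gm26907 (2.54), S100a8 (2.38), Id3 (1.92), Meg3 (1.86), St6gal1 (1.75), Setbp1 (1.63), Gm32554 (1.45), Sema3d (1.40), Zfp951 (1.38) and Igf2r (1.32). It was lower for Cst7 (-1.54), Mogs (-1.54), Cebpa (-1.47), Prss57 (-1.46), Msantd3 (-1.30), Ap3s1 (-1.30), Mrps2 (-1.30), Cenpi (-1.29), Gsr (-1.26) and Sdf2l1 (-1.18). Igf2r passed in 0 of 11 alternatives (lowest edgeR adjusted p = 0.058) and Cenpi in 3 of 11. Cebpa, Cst7, Prss57 and S100a8 are myeloid genes, on whose label effect the rule bears. S100a8 was at 0 to 37.8 CPM in the Flt3-high Dntt-negative cells and at 6.50 to 1591 CPM in the others.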

How the results depend on the processing

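The share of Flt3-high Dntt-negative cells was lower under the KO label in every alternative run, by -3.49 to -13.1 percentage points (KO minus WT), and by -7.99 to -11.1 with 1 library left out, and overlapped between labels with no limit on granule and monocyte genes. The share of Flt3-high cells with no Dntt UMI reversed with at least 5 Flt3 UMIs (-3.15 percentage points), and ranged from 0.896 to 11.8 with 1 library left out. The 4 genes called between labels became 0 with no barcode list covariate (75 at an unadjusted p below 0.05), 18 in list A alone, 12 by DESeq2, 32 with no filter on low counts, 9 with at least 2 Flt3 UMIs, 0 with cells thinned to 5000 UMIs (317 unadjusted), 9 with a mitochondrial share of at most 5% and 637 with no limit on granule and monocyte genes, and ranged from 0 to 23 with 1 library left out. Whether replicate numbers pair the libraries stayed unclear. Same-numbered libraries correlated at -0.09, 0.35 and 0.27. Among WT replicates 1 to 3, the same number was the best match for KO replicates 2 and 3. KO replicate 1 correlated best with WT replicate 2 (0.13). A replicate block in place of the barcode list gave 5 calls and a replicate block with the list 76. Calls against Dntt-positive cells were 965 by DESeq2 and 18 with no library block, and 1142 to 1624 with 1 library left out. Calls against Flt3-zero cells were 754, 55 and 892 to 1197. The interaction gave 353 by DESeq2, 1525 in list A alone, 5 with no barcode list term and 157 to 1542 with 1 library left out. Smad7 (-0.21), Ighm (0.56), B3gnt2 (0.29), B4galt4 (0.37), B4galt5 (-0.18) and B4galt6 (-0.40) reversed with no limit on granule and monocyte genes. With at least 2 Flt3 UMIs B4galt3 (-0.087), B4galt4 (0.12), B4galt6 (-0.019) and B4galt7 (-0.055) did. With the replicate block in place of the list B4galt4 (0.12) and B4galt5 (-0.14) did. With 1 library left out B4galt3 ranged from -0.10 to 0.22, B4galt6 from -0.027 to 0.46 and B4galt7 from -0.018 to 0.33. Socs3 passed in 14 of 20 alternatives, Fam155a in 12 of 16 and Ccl27a in 9 of 13, counting only those in which the gene was tested. Fam155a was not tested without WT replicate 1, 2 or 3 or with equal numbers of cells. Ccl27a was not tested without WT replicate 1, 3 or 4 or with the replicate block in place of the list. Nor was it tested with at least 5 Flt3 UMIs, thinned cells or equal numbers of cells. What caused these changes was not tested. With 57 cells of each library the label comparison gave 5 calls.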
